A study of Homo sapiens with 6 samples.

Results

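Transcripts of 10 genes of the transforming growth factor beta (TGF-beta) pathway were followed in RNA that had been pulled down through AGO2, a protein of the Argonaute family that is loaded with microRNAs and carries them to target transcripts. The genes encode ligands (TGFB1, TGFB2), receptors (TGFBR1, TGFBR2, TGFBR3) and SMAD proteins (SMAD1, SMAD2, SMAD3, SMAD4, SMAD7). They were chosen by name, with earlier results of these data known. Each was read from the probe set that carries its symbol alone. Where a gene had several, the brightest by mean over the 6 arrays was taken. All 10 were found, out of 18417 genes with such a probe set. The material was PC3, an androgen-independent line grown from a prostate cancer. One group was transfected with a miR-205 mimic, a synthetic RNA that acts as the microRNA (n = 3 arrays), and the other with a negative control mimic (n = 3 arrays). The same rat monoclonal antibody, 11A9, was used for all 6 samples, which the series calls biological triplicates. Every array therefore holds AGO2-bound RNA of a transfected line, and no input RNA was analysed here, so less AGO2 on a transcript and less of that transcript cannot be told apart. Nor can fewer cells carrying a transcript and less of it per cell.

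TGF-beta ligands are secreted in a latent form and, once released, bring together the type II receptor TGFBR2 and the type I receptor TGFBR1, both of them kinases. TGFBR1 then phosphorylates the receptor-regulated SMADs SMAD2 and SMAD3, which join the common partner SMAD4 and act on genes in the nucleus, while SMAD1 serves the related bone morphogenetic protein (BMP) branch and SMAD7 inhibits the type I receptor. In epithelial cells the pathway is known for halting growth and, in carcinoma cells, for driving the epithelial-mesenchymal transition.

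The sequence that the mimic is named for is shown because its seed, bases 2 to 8, is what pairs with target transcripts. It is given from RefSeq (GRCh38.p14, chr1:209432166-209432187, plus strand), 5′ to 3′, with the seed in capitals.
hsa-miR-205-5p: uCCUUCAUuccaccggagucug
A transcript pairs with the whole seed where it holds AUGAAGG. Of 2370 mature human microRNA names in the same table, 1, miR-205-5p itself, carries this seed. Transcript sequences of the 10 genes were not used here, so whether they hold such a site was not examined.

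The 6 arrays had medians of 6.82 to 6.86 on the log2 scale. The first principal component (69.5% of the variance) separated the groups, with the miR-205 arrays at -0.411 to -0.384. On it, negative control replicate 2 lay at 0.235, nearer to the miR-205 arrays than the other controls (0.466 and 0.498). That array also stood apart on the second component (-0.88, against 0.01 to 0.37 for the other arrays). The keratins KRT8 and KRT18 of simple epithelium were bright in all groups (control means 11.2 and 11.4), while the prostate secretory genes KLK2 and KLK3 had means of 6.39 and 6.07, next to a mark of 6.04 below which 95% of 341 olfactory receptor genes lie. The defining marker of leukocytes, PTPRC, had a mean of 3.61, and the fibroblast marker DCN one of 3.09. Of 6 fibroblast markers, 4 had means above the mark: COL1A1 (8.99), COL3A1 (6.94), COL1A2 (6.64) and PDGFRB (6.32). Of 4 leukocyte markers, 1 did (CD14, 6.33). By the test described next, KRT8 and KRT18 rose (2 of 4 luminal prostate markers measured), as did KRT15 (1 of 3 basal) and LUM (1 of 6 fibroblast markers, control mean 3.03). Of 4 leukocyte markers 0 passed (1 was lower at an unadjusted p under 0.05). Among all genes, 12.6% rose and 14% fell by the same test. LUM lost its call in 9 of 13 alternatives, among them leaving out any 1 array other than miR-205 replicate 1. KRT15 lost it in 7 of 14, among them leaving out any 1 array other than negative control replicate 2. All 10 members had means above the mark.

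With the miR-205 mimic, 5 of the 10 genes fell in the AGO2 precipitate, 0 rose and 5 did not pass (limma, Benjamini-Hochberg adjusted p under 0.05 over all 18417 genes). Among all genes, 14% fell and 12.6% rose by the same rule, 26.6% in all. With genes under the mark of 6.04 left out, 2787 genes fell and 2482 rose, against 2586 and 2320 of all 18417. The share called among brighter genes was therefore higher, and all 10 members lie above the mark. The members that fell were the receptor kinases TGFBR1 and TGFBR2, the SMADs that carry and share the TGF-beta signal, SMAD3 and SMAD4, and the inhibitor SMAD7. At an unadjusted p under 0.05 the counts were also 5 lower and 0 higher. By the unadjusted rule at least 6916 of all 18417 genes passed, since CD14, with a limma p of 0.0488, held that rank. The miR-205 and control arrays were fully separated for 6 members, 5 lower and 1 higher with miR-205. The same was true of 42.2% of all genes. For each of these 6 members a two-sided exact permutation test gave p = 0.1, the lowest value possible with 3 arrays per group. The calls of members therefore rest on limma alone. The median log2 difference over the 10 genes, miR-205 minus control, was -0.24, against -0.02 over all genes.

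**Figure D1:**
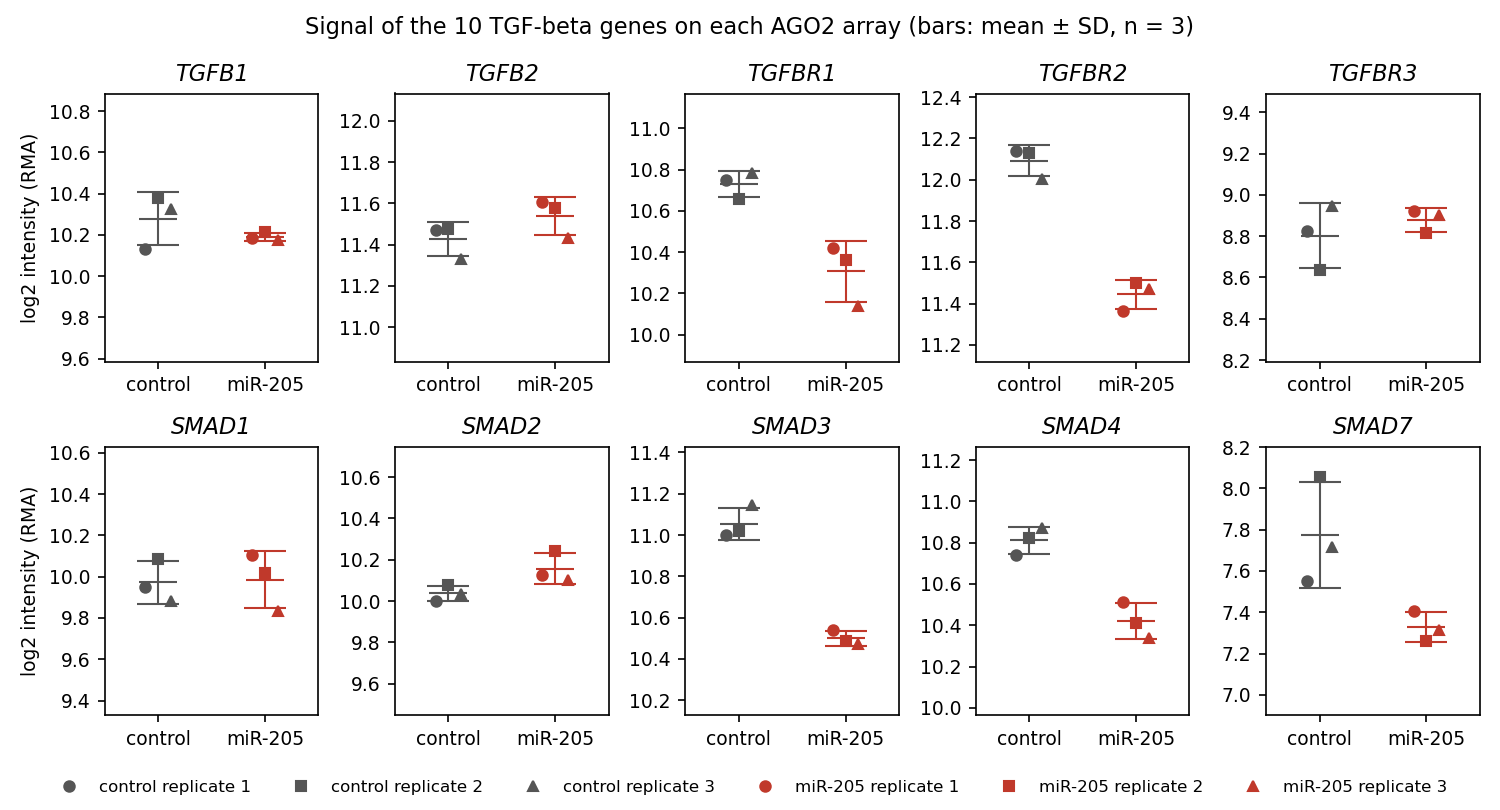
Log2 intensity of each member on each array, with 1 panel per gene, control arrays in grey and miR-205 arrays in red; marker shapes give the replicate number and bars the mean ± SD (n = 3). Every panel spans the same log2 range. TGFBR1, TGFBR2, SMAD3, SMAD4 and SMAD7 have all miR-205 arrays below all control arrays.

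TGFBR2, the type II receptor that binds the ligand first, showed the largest fall of the members. Its log2 intensity was 11.36, 11.50 and 11.47 on the miR-205 arrays and 12.14, 12.13 and 12.005 on the control arrays. All 3 control arrays lay above all 3 miR-205 arrays, and the gap was several times the spread inside either group. The log2 difference was -0.65 ± 0.07 (SE, n = 3 per group, limma adjusted p = 0.000284), a signal 1.57-fold lower. Of all genes, 1.83% had a more negative difference.

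TGFBR1, the type I receptor kinase that phosphorylates SMAD2 and SMAD3, fell as well. It stood at 10.42, 10.36 and 10.14 with miR-205 and at 10.75, 10.66 and 10.78 with the control. The groups did not overlap, although miR-205 replicate 3 was lower than the other miR-205 arrays. The difference was -0.42 ± 0.08 (SE, n = 3 per group, limma adjusted p = 0.00623), or 1.34-fold lower.

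TGFBR3, also called betaglycan, is a co-receptor without kinase activity that presents ligand to TGFBR2. Its values were 8.92, 8.81 and 8.90 with miR-205 and 8.83, 8.64 and 8.95 with the control. The groups overlapped, since control replicate 3 was the highest array of all. The difference of 0.08 did not pass (limma adjusted p = 0.566) and was -0.01 without control replicate 2 and 0.15 without control replicate 3, and its 95% interval ran from -0.12 to 0.27, which leaves out a fall as large as that of either kinase receptor.

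Neither ligand gene passed the test. TGFB1, the ligand most widely made in adult tissue, stood at 10.18, 10.21 and 10.18 with miR-205 and at 10.13, 10.38 and 10.33 with the control. The miR-205 arrays were tightly placed and lay inside the range of the control arrays, with a difference of -0.09 (95% interval -0.26 to 0.08, limma adjusted p = 0.437) that was -0.16 without control replicate 1 and -0.04 without control replicate 2. TGFB2, a ligand whose binding depends more on betaglycan, stood at 11.61, 11.58 and 11.43 with miR-205 and at 11.47, 11.48 and 11.33 with the control. Its groups overlapped as well, and the difference was 0.11 (95% interval -0.05 to 0.28, limma adjusted p = 0.306), or 0.06 without control replicate 3.

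Of the SMADs that TGFBR1 phosphorylates, SMAD3 fell and SMAD2 did not pass. SMAD3, which binds DNA directly, was read at 10.54, 10.49 and 10.47 with miR-205 and at 11.00, 11.02 and 11.14 with the control. The groups were far apart compared with their SDs of 0.04 and 0.08, and the difference was -0.55 ± 0.06 (SE, n = 3 per group, limma adjusted p = 0.000444), or 1.47-fold lower. SMAD2, whose main protein form does not bind DNA directly, was at 10.13, 10.24 and 10.10 with miR-205 and at 10.001, 10.08 and 10.04 with the control. Here the miR-205 arrays lay slightly above all control arrays, with a difference of 0.12 (95% interval -0.02 to 0.26, limma adjusted p = 0.203), or 0.08 without miR-205 replicate 2. Of all genes, 19.9% had miR-205 arrays that lay entirely above the control arrays and 22.2% had them entirely below. The second probe set of SMAD2 (mean 7.85) had a difference of 0.05 that did not pass either (limma adjusted p = 0.893 over all probe sets).

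SMAD4, the partner that both the TGF-beta and the BMP branch use, fell. Its arrays read 10.51, 10.41 and 10.34 with miR-205 and 10.74, 10.82 and 10.87 with the control. No control array came down to the highest miR-205 array, and the difference was -0.39 ± 0.07 (SE, n = 3 per group, limma adjusted p = 0.0036), or 1.31-fold lower.

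SMAD1, which carries BMP signals, was the member with the smallest difference. It was at 10.10, 10.02 and 9.83 with miR-205 and at 9.95, 10.09 and 9.88 with the control. The groups were interleaved, the difference was 0.01 (limma adjusted p = 0.934), and the 95% interval of -0.18 to 0.21 leaves out a change as large as that of SMAD3 or SMAD4.

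SMAD7, a feedback inhibitor that TGF-beta itself induces, was the least certain of the members that fell. It read 7.41, 7.26 and 7.32 with miR-205 and 7.55, 8.05 and 7.72 with the control. The miR-205 arrays were all lower, and the control arrays were spread, with replicate 2 well above the others. The difference was -0.45 ± 0.12 (SE, n = 3 per group, limma adjusted p = 0.0227), or 1.36-fold lower. Without negative control replicate 2 it was -0.31 (adjusted p = 0.0187). The call was lost on leaving out miR-205 replicate 2 (adjusted p = 0.0779), miR-205 replicate 3 (adjusted p = 0.0688) or the third control array (adjusted p = 0.0536), and when all probe sets of the array were tested together (0.0656).

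In 5 pairs of related genes, picked after their values were seen, the change of one gene was set against the other by taking their log2 difference on each array. SMAD3 relative to SMAD2 ran from 0.24 to 0.42 on miR-205 arrays and from 0.95 to 1.11 on control arrays. It was thus lower by -0.67 ± 0.07 (SE, n = 3 per group), with no overlap, and a two-sided exact permutation test gave p = 0.1, which is the lowest value possible with 3 arrays per group. SMAD3 relative to SMAD1 changed by -0.57 ± 0.11 and TGFBR2 relative to TGFBR3 by -0.72 ± 0.15 (SE, n = 3 per group), each with the same exact p. TGFBR2 relative to TGFBR1 changed by -0.23 ± 0.13 (SE, n = 3 per group, exact p = 0.2), with overlapping groups. SMAD7 relative to its fellow inhibitor SMAD6 changed by -0.09 ± 0.12 (SE, n = 3 per group, exact p = 0.5). After Benjamini-Hochberg adjustment over the 5 pairs the exact p-values were 0.167 to 0.5, so no pair could pass at this number of arrays, and the values are given as a description. SMAD2, SMAD4 and SMAD7 all lie on chromosome 18, with 2 protein-coding genes between SMAD2 and SMAD7 in the RefSeq table (GRCh38.p14). Their differences were 0.12, -0.39 and -0.45.

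**Figure D2:**
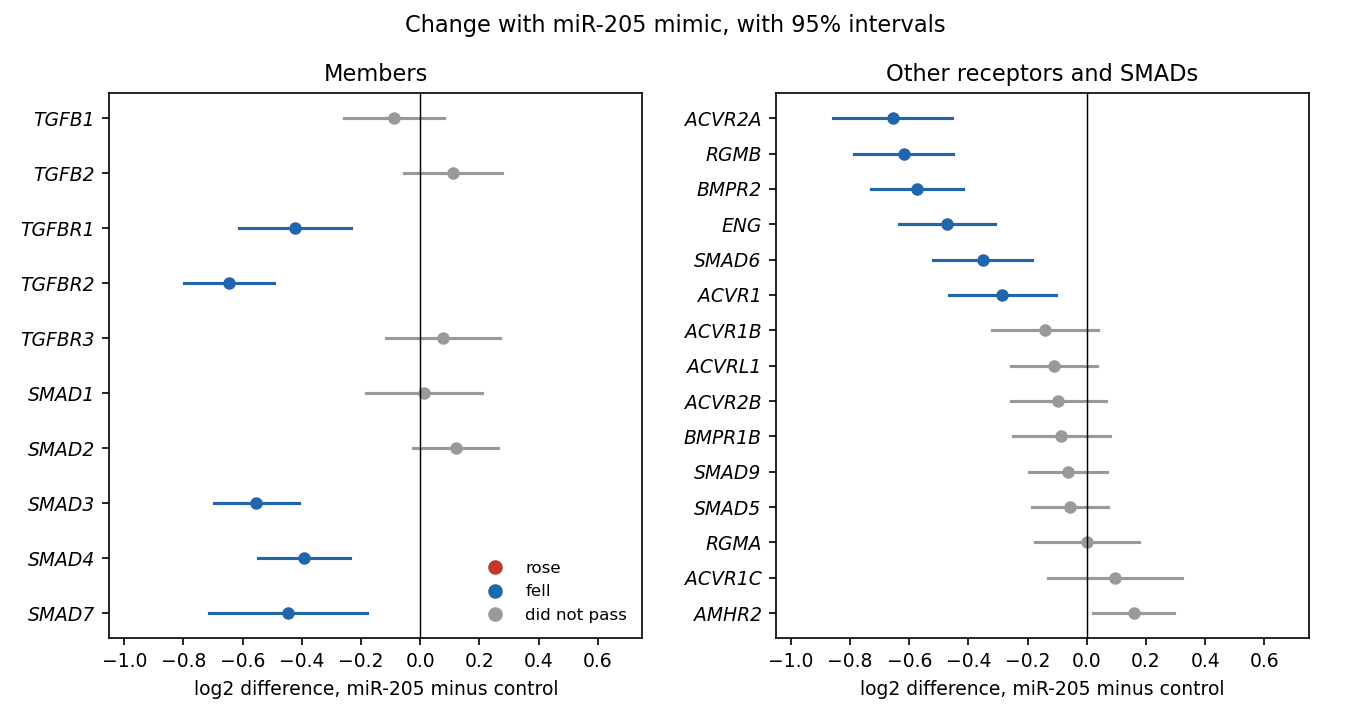
Log2 difference, miR-205 minus control, with its 95% interval from limma, for the 10 members (left) and for the other receptors, co-receptors and SMADs (right); blue genes fell and grey genes did not pass. Of the members, TGFBR2 lies farthest to the left at -0.65; of the other receptors, ACVR2A does at -0.66.

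The other genes of the pathway were taken from 8 lists by role, also chosen with earlier results of these data known. Of 124 genes listed, 118 were measured, of which 29 fell, 13 rose and 76 did not pass (8 rose without negative control replicate 1, and 21 without negative control replicate 2). The share called was 35.6%, against 26.6% of all genes, and the median difference was -0.05. Of the 118 genes, 104 had means above the mark of 6.04, whereas the 26.6% also counts genes under it.

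Among the other receptors and co-receptors, 5 of 12 measured fell and 0 rose (1 was higher at an unadjusted p under 0.05), with a median of -0.13. The share called was 41.7%, against 26.6% of all genes. The BMP type II receptor BMPR2 stood at 11.15, 11.18 and 11.30 with miR-205 and at 11.71, 11.80 and 11.85 with the control. Its groups were well separated, with a difference of -0.57 ± 0.07 (SE, n = 3 per group, limma adjusted p = 0.000523). The activin type II receptor ACVR2A fell by 0.66 (adjusted p = 0.001) and the BMP co-receptor RGMB by 0.62 (adjusted p = 0.000523). ENG, an accessory receptor for TGF-beta best known from endothelium, fell by 0.47 (adjusted p = 0.00181). ACVR1, a type I receptor of the BMP branch named after its values were seen, fell by 0.29 (adjusted p = 0.0288), a call that ended without miR-205 replicate 2 or 3 and without control replicate 2 or 3 (adjusted p up to 0.103 over all alternatives), and also with the replicate number as a block (adjusted p = 0.0541) or all probe sets tested (adjusted p = 0.0695). The activin type I receptor ACVR1B had a difference of -0.14 (adjusted p = 0.235), or -0.06 without control replicate 3.

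Endothelial marker genes were measured beside ENG. Of 4 markers, 2 fell and 0 rose, both by the adjusted and the unadjusted rule. Among all genes, 14% fell by the adjusted rule. PECAM1 had a difference of -0.98 (-0.52 as the mean of its probe sets) and KDR, a receptor for vascular endothelial growth factor, one of -0.94. The defining markers CDH5 and VWF had means of 5.70 and 5.78, under the mark of 6.04. The mean over the 4 markers ran from 6.32 to 6.41 with miR-205 and from 6.83 to 6.92 with the control. Their part in the values of ENG was not tested.

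Of the other SMADs, the inhibitor SMAD6, which acts mainly on the BMP branch, fell by 0.35 (9.46, 9.60 and 9.45 against 9.77, 9.96 and 9.84, limma adjusted p = 0.00823). The groups did not overlap. SMAD5 (-0.06, adjusted p = 0.523) and SMAD9 (-0.06, adjusted p = 0.478; named after its values were seen), which like SMAD1 carry BMP signals, did not pass. Of the 8 SMAD genes measured in all, SMAD3, SMAD4, SMAD6 and SMAD7 were therefore the ones that fell. Among all genes, 14% fell.

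Among the other ligands, 3 of 20 rose and 2 fell, while 15 did not pass. Without negative control replicate 2, 4 rose and 3 fell, and without any 1 other array 2 rose and 2 fell. The median was 0.01 and 25% were called, close to the 26.6% of all genes. BMP3, an atypical BMP that opposes other BMPs, rose by 0.65 (limma adjusted p = 0.000207), and GDF15, a distant family member secreted under stress, rose by 0.45 (adjusted p = 0.00402). INHBB, the beta-B subunit of activin and inhibin, fell by 0.42 (adjusted p = 0.000937), and NODAL fell by 0.38 (adjusted p = 0.00294) from a control mean of 5.35 that was already under the mark of 6.04. BMP4 had a difference of 0.12 (adjusted p = 0.323), which was 0.06 without control replicate 1 and 0.20 without control replicate 2. INHBA, the beta-A subunit, reached 11.84 on the second control array, above the 11.25 and 11.32 of the other controls and the 11.53 to 11.75 of the miR-205 arrays. Its difference was 0.19 (adjusted p = 0.396) and, without that array, 0.37 (adjusted p = 0.0086). Without control replicate 1 it was 0.08 (adjusted p = 0.771) and without control replicate 3 it was 0.11.

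Genes that store or release latent TGF-beta changed in both directions: 5 of 12 fell and 3 rose, with a median of -0.03. The share called was 66.7%, against 26.6% of all genes. ITGB8, the integrin subunit that with the alpha-v chain frees TGF-beta from its latent complex, was at 9.12, 9.16 and 9.36 with miR-205 and at 9.97, 9.98 and 10.08 with the control. The groups did not overlap, and the fall was 0.80 ± 0.08 (SE, n = 3 per group, limma adjusted p = 0.000207). LTBP1, which ties the latent complex to the matrix, rose by 0.52 (adjusted p = 0.00224), whereas LTBP2, a matrix protein of the same family that does not bind the complex, fell by 0.44 (adjusted p = 0.00121). The microfibril gene FBN1 fell by 0.49 (adjusted p = 0.00203). THBS1, an activator of latent TGF-beta named after its values were seen, rose by 0.72 (adjusted p = 0.023), reached 11.67 on control replicate 2 while the remaining controls read 10.91 and 10.95, and lost its call without miR-205 replicate 2 or 3 or without control replicate 1 or 3 (adjusted p = 0.0703 to 0.0902). The call also ended with a robust variance with a trend (adjusted p = 0.113) and with all probe sets tested (adjusted p = 0.07). In the list, 3 to 5 genes fell and 1 to 2 rose with 1 array left out: 3 fell without any 1 miR-205 array or control replicate 3, and 1 rose without miR-205 replicate 3 or control replicate 1.

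Of 11 extracellular antagonists measured, 1 rose and 0 fell (3 and 0 at an unadjusted p under 0.05, and 3 rose by limma without negative control replicate 2, 2 without miR-205 replicate 3). The one that rose was TWSG1, a BMP-binding protein, by 0.37 (limma adjusted p = 0.0031). The share called in this list was 9.09%, against 26.6% of all genes.

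Among 25 intracellular regulators, 10 fell and 3 rose, while 12 did not pass. This is 52% called, against 26.6% of all genes, with a median of -0.09. ZFYVE9, also called SARA, brings SMAD2 and SMAD3 to the receptor. It was at 8.14, 8.08 and 7.91 with miR-205 and at 8.63, 8.62 and 8.68 with the control, a fall of 0.60 ± 0.07 (SE, n = 3 per group, limma adjusted p = 0.000567). The related endosomal protein gene ZFYVE16 fell by 0.91 (adjusted p = 0.000136), the largest fall of all the pathway genes measured. PMEPA1, an inhibitor that TGF-beta induces, fell by 0.71 (adjusted p = 0.000331), and CAV1, the caveolin involved in receptor uptake, by 0.47 (adjusted p = 0.00117). NEDD4L, a ubiquitin ligase for activated SMADs, rose by 0.35 (adjusted p = 0.00797). SKIL, a SMAD corepressor, had a difference of -0.17 (adjusted p = 0.0811). Several falls in this list were small, and 5 to 9 genes fell with 1 array left out, with 5 without miR-205 replicate 2 and 6 without miR-205 replicate 3, control replicate 1 or control replicate 3. Leaving out negative control replicate 2 gave 4 that rose, and leaving out any other array gave 2.

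Of 26 genes that TGF-beta or BMP signals are known to act on, 6 fell and 2 rose, while 18 did not pass. The share called was 30.8%, against 26.6% of all genes, and the median was -0.03. Of the 26 genes, 24 had means above the mark of 6.04, whereas the 26.6% also counts genes under it. The matrix gene FN1, fibronectin, was at 12.03, 12.02 and 12.10 with miR-205 and at 12.64, 12.65 and 12.76 with the control. The groups lay far apart for their spread, with a fall of 0.63 ± 0.06 (SE, n = 3 per group, limma adjusted p = 0.000223). The basement membrane collagen COL4A1 fell by 0.60 (adjusted p = 0.000462), the secreted protein gene ANGPTL4 by 0.50 (adjusted p = 0.0019) and the metalloprotease gene ADAM19 by 0.36 (adjusted p = 0.00267). ID3, a target of the BMP branch, rose by 0.33 (adjusted p = 0.0118), while its relative ID1 had a difference of 0.01 (adjusted p = 0.956).

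Negative control replicate 2 moved several response genes. CCN2, a matricellular protein gene, was at 13.18, 13.38 and 13.29 with miR-205 and at 11.48, 13.23 and 11.71 with the control, so that this 1 control array reached the miR-205 range. Its difference of 1.15 did not pass (limma adjusted p = 0.0542), and it was 1.69 without that array (adjusted p = 1.34e-05). JUNB, an AP-1 factor gene named after its values were seen, rose by 1.46 (adjusted p = 0.0236) and was at 11.88 in that array against 10.27 and 10.09. It rose by 2.03 without it, and lost its call without any 1 of the other arrays (adjusted p = 0.0617 to 0.0898), with a robust variance with a trend (adjusted p = 0.141) and with all probe sets tested (adjusted p = 0.0734). Without negative control replicate 2, 6 response genes rose and 6 fell, whereas without any other array 1 rose and 6 to 7 fell. What sets that array apart was not tested.

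The SMAD-independent list covers more than 1 route from the receptors, among them those through the kinase TAK1 and through RHOA. Of its 9 measured genes, 1 rose and 0 fell (3 and 1 at an unadjusted p under 0.05). The share called was 11.1%, against 26.6% of all genes. The polarity gene PARD6A, whose product is a substrate of TGFBR2, rose by 0.46 (limma adjusted p = 0.00443). Without negative control replicate 2, 2 rose and 2 fell.

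**Figure D3:**
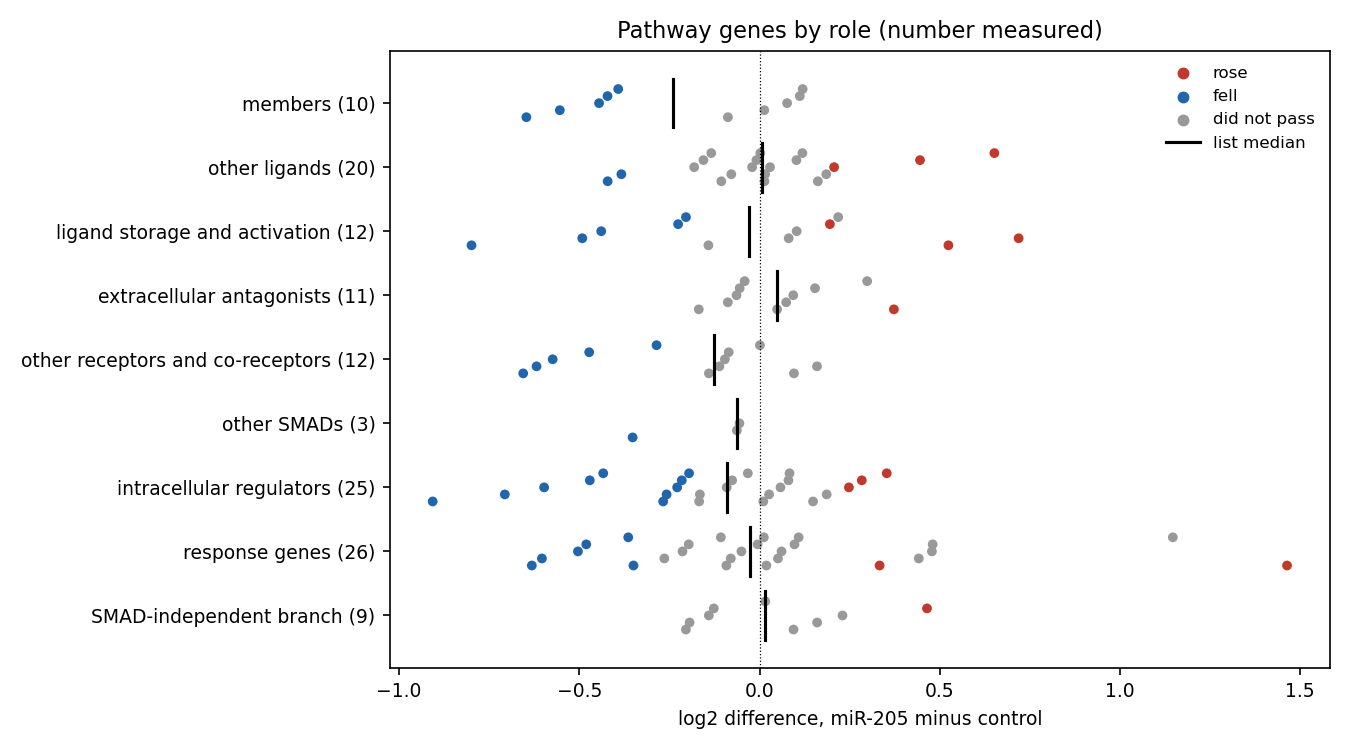
Log2 difference, miR-205 minus control, of every measured pathway gene, by role; each point is 1 gene, coloured by whether it rose, fell or did not pass, and the black line is the median of the list. Points are offset vertically only to separate them. The receptor list has 9 of 12 genes to the left of 0, of which 5 fell, and 0 that rose, while ligand storage genes lie on both sides of 0. Among all genes, 14% fell and 12.6% rose.

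The genes outside the pathway whose 6 values lay closest to those of TGFBR2, after each gene's mean was taken away, were PLOD2, a collagen lysyl hydroxylase (Euclidean distance 0.06, log2 difference -0.63), PDCD1LG2, the immune ligand PD-L2 (distance 0.07, difference -0.64), and MOCS2, an enzyme of molybdopterin synthesis (distance 0.09, difference -0.70). The likeness is over 6 arrays and is given as a description.

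The calls of TGFBR1, TGFBR2, SMAD3 and SMAD4 held when any 1 array was left out. TGFBR2 then ran from -0.69 to -0.61, SMAD3 from -0.58 to -0.51, SMAD4 from -0.44 to -0.35 and TGFBR1 from -0.48 to -0.34. Leaving out negative control replicate 2 gave -0.63 for TGFBR2, -0.57 for SMAD3, -0.39 for SMAD4 and -0.46 for TGFBR1, with 5 members lower and 0 higher as before.

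**Figure D4:**
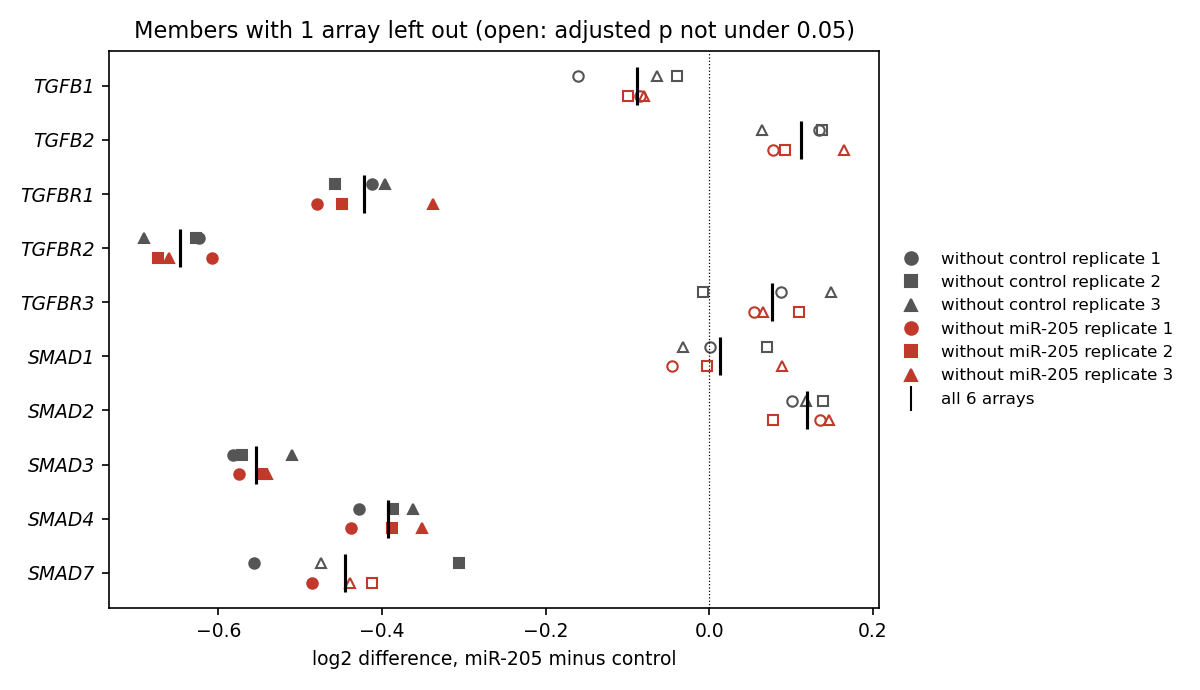
Log2 difference of each member, miR-205 minus control, with all 6 arrays (black bar) and with each array left out in turn (grey for control arrays, red for miR-205 arrays, shape by replicate); open markers have a limma adjusted p that is not under 0.05. TGFBR1, TGFBR2, SMAD3 and SMAD4 have filled markers throughout, and SMAD7 has 3 open ones.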

How the data were processed

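RNA from AGO2 precipitates was hybridised to Affymetrix gene arrays. The authors' deposited values are on a log2 scale: the submitters' processing notes name RMA and Affymetrix Expression Console 1.1.2. The build and probe annotation they used are not given in the sources used here. The values were taken without further normalization. Of 33297 probe sets, 19460 carried 1 gene symbol in the platform table (1754 carried several and were not named), which gave 18417 genes. The test was a two-sided limma fit (version 3.58.1, R 4.3.3; lmFit and eBayes with a term for group and no other), adjusted by Benjamini-Hochberg over 18417 genes, with a threshold of 0.05. The steps were tested on simulated data with independent noise, few changed genes and no array that stood apart. These settings differ from the arrays used here, so the simulation does not show how the steps act on them.

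The members and gene lists were chosen with earlier results of these data known. Named were all members, up to 4 called genes per list with the smallest p, 1 in the other direction, 10 fixed genes (1 of them is not reported here), and the 3 genes closest to the member with the smallest p. Marker genes, SMAD9, JUNB, THBS1 and ACVR1 were named after their values were seen. No test was made on a list as a whole: lists are described by counts and medians. Nothing says what a replicate number marks, so the numbers were not treated as pairs. Deviations of same-numbered arrays correlated at 0.01 to 0.09, and those of unlike-numbered arrays at -0.09 to 0.05. The number of arrays limits precision. Alternatives were other normalizations, probe set summaries, variance models, filters, weights, a block and leaving out each array.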

Additional observations from a re-analysis of the deposited data

How the results depend on the processing

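The counts over members, pathway genes and all genes and the named genes with a difference were recomputed under 14 alternatives (13 for NODAL and LUM, which the filter on dim genes removes). Counts per role list and the pairs of members were not, apart from leaving out each array for the lists. Of the 10 members, 7 kept direction and side of the threshold in all 14. SMAD7 lost its call under 4 of them, as given above, and the calls of TGFBR1, TGFBR2, SMAD3 and SMAD4 held throughout. Members that fell numbered 4 to 5 and members that rose 0. With 1 array left out, uncalled differences near 0 changed sign or size: TGFBR3 ran from -0.0072 (without negative control replicate 2) to 0.15 and SMAD1 from -0.046 to 0.089, while TGFB1 ran from -0.16 to -0.04, TGFB2 from 0.06 to 0.16 and SMAD2 from 0.08 to 0.15. ID1, not called, was -0.040 with array weights and between -0.14 and 0.10 with 1 array left out. Pathway genes that rose numbered 8 to 21 with 1 array left out (8 without negative control replicate 1, 21 without negative control replicate 2). CCN2 passed without dim genes (adjusted p = 0.0393), with array weights (0.00929) and with the replicate block (0.0245). The block ended the calls of ACVR1 (adjusted p = 0.0541) and KRT15 (0.057). With the replicate number as a block, 5 members fell and 0 rose, pathway genes numbered 27 lower and 13 higher, and all genes 2423 lower and 2204 higher. With a shared number the arrays did not clearly deviate together (correlations of 0.01 to 0.09, against -0.09 to 0.05 with unlike numbers). Over the 55 genes named, 718 gene-level comparisons kept direction and call, 39 lost the call, 5 gained it and 6 changed sign. Many of these genes were named for their small p in these same data, which makes a lost call less likely. Several alternatives also leave the difference itself unchanged by design. The counts are therefore a description. The causes were not tested. NODAL, and LUM among the marker genes, had signal under the mark of 6.04, so their sizes are less certain.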
